A study of Mus musculus with 24 samples.

Results

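The segments described here are the long stretches of the autosomes that shallow whole genome sequencing (sWGS) of murine tissue put at a single copy number level. They were chosen by length alone, and the length of a segment is itself read from the measured copy number profile. Of 1485 autosomal segments in 21 libraries, 625 were at least 20 Mb long and were kept. The AGM adrenal glands held 132 of them, the TI tumours 242 and the TIM tumours 251. Because the same profiles chose the segments and gave their levels, the levels of these 625 segments are described without a test.

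The labels list 24 mouse samples. The 3 AG samples are adrenal glands of CRE - animals, which the authors used as the reference and which have no segments of their own here. The 5 AGM samples are adrenal glands labelled MYCN fl/wt, CRE +. The 8 TI tumours are labelled IGF2BP1 +/+, CRE +, except replicate 1, which is labelled IGF2BP1 +/-, CRE +, and the 8 TIM tumours are labelled IMP1/MYCN, CRE +, where IMP1 is another name of IGF2BP1. All tumours are labelled as neuroblastoma, and TI replicate 6 and TIM replicates 1 and 5 were taken from the adrenal gland. Each transgene was placed behind a stop cassette in Rosa26, and the Cre that removes the cassette was driven from the Dbh promoter, so that expression is limited to cells of the sympathoadrenal lineage and their descendants. The age of the animals is not given in the labels.

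Neuroblastoma is a childhood tumour of the sympathetic nervous system that arises from neural crest cells. Its genome is marked less by point mutations than by copy number changes, either of whole chromosomes or of long chromosome segments. In human tumours the best known segmental changes are gain of the long arm of chromosome 17 and losses from the short arm of chromosome 1 and the long arm of chromosome 11. Much of these arms corresponds to distal Chr 11, distal Chr 4 and Chr 9 of the mouse. A diploid genome that gains 1 copy of a segment in every cell moves from 2 to 3 copies, a log2 ratio of 0.58, and one that loses 1 copy moves to a log2 ratio of -1. Levels between these values and 0 also occur. In DNA from whole tissue a change carried by fewer of the cells and a smaller change per cell cannot be told apart.

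Each segment carries 2 deposited values, named median and mean, on the log2 scale. How they were computed from the windows of a segment is not given in the sources used here, so a copy number taken from them is the level as deposited and not a count of copies. By its median a long segment was called a gain at 0.3 or above and a loss at -0.4 or below, the thresholds of the study. It was called level within 0.05 of 0 and intermediate when it fell between the level range and either threshold. The copy number was taken as 2 multiplied by 2 to the power of the median, and a segment within 0.25 copies of 3 or of 1 was called near 1 whole copy. Long segments are not independent of each other, because a short segment of another level can split a chromosome into several long pieces.

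Long segments covered between 96.7% and 97.6% of the autosomes in AGM, between 79.5% and 97.4% in TI and between 76.8% and 97.4% in TIM. The most divided profiles were those of TI replicate 3, TIM replicate 9 and TIM replicate 12, with 79.5%, 76.8% and 79.1% of the autosomes in long segments. An AGM library had 25 to 29 long segments, a TI library 26 to 35 and a TIM library 26 to 42. Library series, as given by the prefixes SH and AGH of the sample titles, which the labels do not explain, was nearly confounded with genotype. All AGM and TIM libraries carry AGH, 7 of 8 TI libraries carry SH, and the 3 AG reference libraries carry SH. Library series and genotype therefore cannot be told apart in comparisons of TI with TIM or AGM. The labels do not state separate animals, so the p-values below measure the spread between these samples.

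The long segments of the AGM adrenal glands were all level. Their medians lay between 0.0056 and 0.020, and none of the 132 was a gain, a loss or intermediate. Among AGM segments of all lengths, 7.66% were gains, 23.8% losses and 1.53% intermediate, and all of these were shorter than 20 Mb. The 5 adrenal glands thus give the spread of a level long segment in AGM libraries, with an SD of the medians of 0.0027. Level long segments of the tumours spread more widely, with an SD of 0.017 in TI and 0.0087 in TIM.

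In TI tumours, 21 of 242 long segments (8.68%) were gains, 4 (1.65%) were losses and 61 (25.2%) were intermediate. By the mean TI had 15 losses and 107 intermediate segments, and with thresholds of 0.2 and -0.2 it had 33 gains, 18 losses and 35 intermediate segments. Among TI segments of all lengths the shares were 16.6% for gains, 12.9% for losses and 19.2% for intermediate levels. The remaining 156 long segments were level. In TIM tumours, 11 of 251 long segments (4.38%) were gains, none was a loss and 9 (3.59%) were intermediate. The TIM gains numbered 6 when neighbours of the same level were joined, and the TIM intermediate segments 17 or 3 with a baseline of 0.03 or 0.1 and 59 by the mean. Among TIM segments of all lengths the shares were 13.9%, 12.7% and 7.77%. In length, TI held 1064 Mb of long gains, 152 Mb of long losses and 3799 Mb at intermediate levels over its 8 tumours. TIM held 387 Mb of long gains and 423 Mb at intermediate levels. In TI the length at intermediate levels thus exceeded the length past the thresholds, and 28 of its 61 intermediate segments lay above 0 and 33 below.

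**Figure D1:**
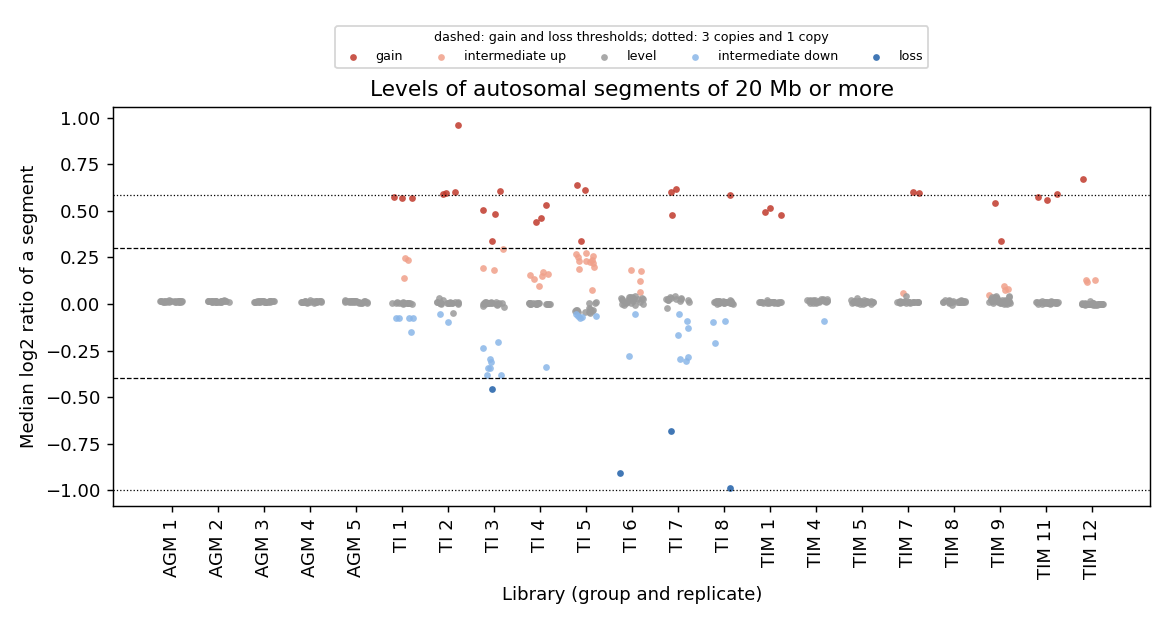
Median log2 ratio of every autosomal segment of 20 Mb or more (vertical axis) in each of 21 libraries (horizontal axis), with colours for the level. The points of the 5 AGM libraries lie between 0.0056 and 0.020, those of TI spread from -0.99 to 0.96 with 61 at intermediate levels, and those of TIM are level apart from 11 gains and 9 intermediate segments.

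Most tumours carried long segments away from the diploid level, and the tumours differed widely. Long gains were found in 7 of 8 TI and 5 of 8 TIM tumours. TI replicate 6 was the only TI tumour without one. Long intermediate segments were found in all 8 TI tumours and in TIM replicates 4, 7, 9 and 12. TIM replicates 5 and 8 had no long segment away from the diploid level. The length in long intermediate segments was 47.2 Mb in TI replicate 2 and 102 Mb in TI replicate 8, and lay between 431 and 832 Mb in the other 6 TI tumours. The highest value in TIM was 159 Mb in replicate 9. Of the 8 TIM tumours, 4 had none.

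**Figure D2:**
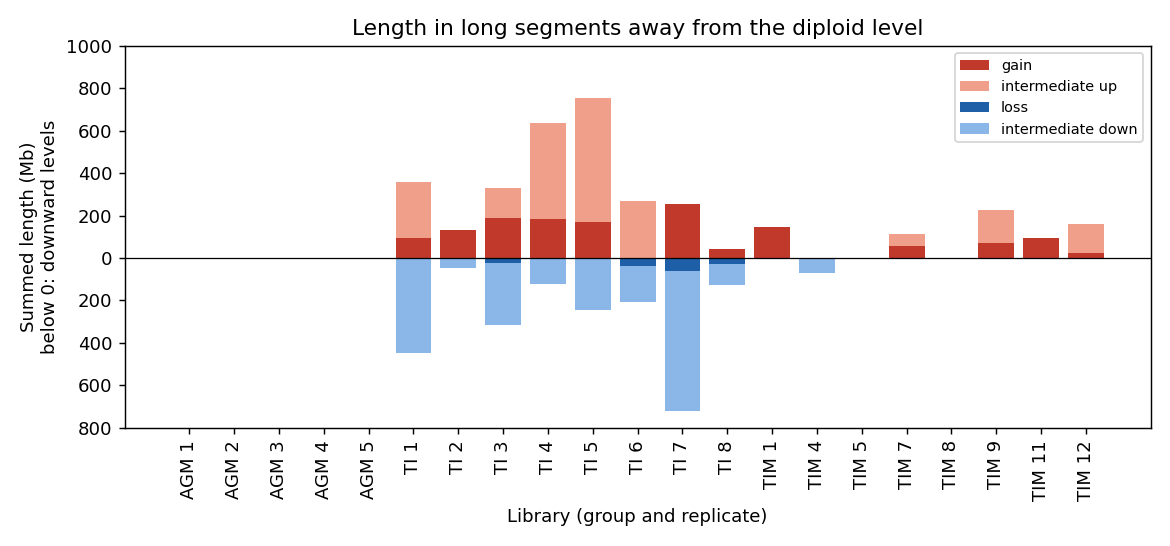
Summed length in Mb of long segments that were gains or intermediate above 0 (bars upward) and losses or intermediate below 0 (bars downward) in each library. Bars of the 5 AGM libraries are empty, TI replicate 5 has 832 Mb at intermediate levels, and TI replicate 7 has the longest loss with 63.1 Mb.

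Most long gains lay near 3 copies by the deposited median. Of the 36 long segments past a threshold, 30 lay within 0.25 copies of 3 or of 1. These were 27 of 32 gains and 3 of 4 losses. The thresholds had already left out levels nearer to 2 copies, and cn.MOPS, the caller of the study, models whole-number classes. The counts therefore do not show how many copies the cells carry. With neighbours of the same level joined, TI had 19 segments near 1 whole copy and TIM 5, against 20 and 10 unjoined. The 6 segments past a threshold but outside the band were chosen for mention after their values were seen. The distal Chr 11 segment of TI replicate 2 lay at 0.96, or 3.90 copies, near 4. A segment of TI replicate 3 on Chr 1, one of TI replicate 5 on Chr 11 and one of TIM replicate 9 on Chr 11 lay at 2.53 copies each, and a Chr 6 segment of TI replicate 4 at 2.71. The loss of TI replicate 3 on Chr 9 lay at 1.46 copies. No long segment had a median between 0.34 and 0.44, with 3 gains below and 29 above that gap.

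Segments lay on both sides of either threshold. Just inside the gain threshold were the 3 segments at 2.53 copies, with medians of 0.34 each. Just outside it were Chr 1 of TI replicate 3 at 0.30 and segments of TI replicate 5 on Chr 1 and Chr 18, both at 0.27. Just inside the loss threshold was Chr 9 of TI replicate 3 at -0.45, and just outside it were segments of the same tumour on Chr 4 and Chr 9, both at -0.38. The shortest segment kept was 20.02 Mb long, on Chr 1 of TIM replicate 12, and the longest segment left out was 19.8 Mb long, on Chr 15 of TIM replicate 4.

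Distal Chr 11 carried the most frequent long gain. In 7 of 8 TI tumours a long gain reached from within Chr 11 to less than 0.5 Mb from its end. The medians were 0.57 in TI replicate 1, 0.96 in replicate 2, 0.60 in replicate 3, 0.53 in replicate 4, 0.61 in replicate 5, 0.62 in replicate 7 and 0.59 in replicate 8. Apart from replicate 2, all lay within 0.25 copies of 3. The stretch shared by all 7 ran from 86100001 to 121800000 (35.7 Mb, mm39). TI replicate 6 was level there, with a median of 0.028. In TIM only replicate 9 had long gains on Chr 11, at 0.34 from 6760001 to 50460000 and at 0.54 from 68600001 to 93520000.

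The 7 distal gains of Chr 11 began at 7 different positions, spread over 14.2 Mb. The reference sequence around each start is printed to show where the higher level begins, in the order of the chromosome. The bases come from the GRCm39 reference, plus strand, 30 on either side of the grid position, with those inside the gained segment in capitals. Since all segments start on a grid of 20 kb, the true junction is not located to the base and may lie elsewhere in the neighbouring windows.

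TI replicate 3, chr11:71939971-71940030: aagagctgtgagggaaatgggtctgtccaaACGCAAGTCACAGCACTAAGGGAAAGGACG
TI replicate 2, chr11:73299971-73300030: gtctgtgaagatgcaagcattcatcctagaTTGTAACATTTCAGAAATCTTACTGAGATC
TI replicate 7, chr11:77959971-77960030: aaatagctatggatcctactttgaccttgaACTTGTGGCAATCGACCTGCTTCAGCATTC
TI replicate 5, chr11:79299971-79300030: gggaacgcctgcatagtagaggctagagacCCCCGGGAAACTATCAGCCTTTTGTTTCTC
TI replicate 8, chr11:80979971-80980030: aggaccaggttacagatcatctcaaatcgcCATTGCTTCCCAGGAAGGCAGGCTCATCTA
TI replicate 1, chr11:83219971-83220030: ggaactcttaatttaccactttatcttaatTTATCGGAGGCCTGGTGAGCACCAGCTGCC
TI replicate 4, chr11:86099971-86100030: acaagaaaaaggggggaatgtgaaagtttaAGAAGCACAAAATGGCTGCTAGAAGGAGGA

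Of these start positions, 4 fell within a protein-coding gene of the GENCODE annotation. They were Pitpnm3 in TI replicate 3, Nf1 in TI replicate 5, Asic2 in TI replicate 8 and Ap2b1 in TI replicate 1. Nf1 encodes neurofibromin, which restrains Ras signalling, and Asic2 encodes a proton-gated ion channel. The GC content of the 20 kb before the start ran from 39.2% to 50.9% and that of the 20 kb after it from 36.6% to 51.9%.

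In TI replicate 5 Chr 11 lay at 3 successive levels along the chromosome. It lay at 0.23 from 6980001 to 49820000, at 0.34 from there to 79300000 and at 0.61 to 121880000. These correspond to 2.35, 2.53 and 3.05 copies. Each long segment ended where the next began.

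Chr 12, which carries Mycn, held long gains in TI replicates 2, 5 and 7 and long intermediate segments in TI replicates 1, 4 and 6. In TI replicate 7 a single segment at 0.60 spanned 97.4% of the chromosome, and in TI replicate 5 a segment at 0.64 spanned 82.7%. TI replicate 2 had 3 pieces between 0.59 and 0.60. The intermediate segments each covered 97.3% to 97.5% of the chromosome, at 0.14 in replicate 1, 0.15 in replicate 4 and 0.064 in replicate 6, or 2.20, 2.22 and 2.09 copies. TI replicates 3 and 8 had no long segment on Chr 12, the only cases among 399 combinations of library and autosome. Their Chr 12 was divided into 15 segments each, of which 13 and 11 were gains, and the longest pieces measured 18.0 and 19.1 Mb. The long segments of Chr 12 in TIM were level in all 8 tumours.

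Chr 6, which carries the Rosa26 locus of the transgenes, was the only autosome with long gains in more than 1 TIM tumour. These were TIM replicates 1, 7, 11 and 12, with medians of 0.48 to 0.51, 0.59 to 0.60, 0.56 to 0.59 and 0.67. In TIM replicate 7 the gained pieces lay in the distal part of the chromosome, and the proximal 57.6 Mb was intermediate at 0.058. In TIM replicate 12 the only long gain was proximal and spanned 16.7% of the chromosome. The rest of its Chr 6 held no long segment. Over segments of all lengths the chromosome lay at 0.69 in this tumour, so the higher level was not limited to the proximal piece. In TI, replicates 3 and 4 had long gains on Chr 6 at 0.44 to 0.51, and replicates 1 and 5 had intermediate segments at 0.075 to 0.25. TI replicate 8 lost its distal 26.8 Mb, at -0.99 or 1.01 copies.

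Chr 17, which carries Alk, a receptor tyrosine kinase gene mutated in some human neuroblastomas, was high in 5 TI tumours. TI replicate 1 had 2 gained pieces at 0.57 and 0.58, and TI replicate 7 a gain at 0.48 over 96.7% of the chromosome. TI replicates 3, 4 and 5 were intermediate at 0.18, 0.14 and 0.26. All TIM long segments of Chr 17 were level. On Chr 1, TI replicate 3 lay at 0.30, 0.19 and 0.34 along the chromosome and TI replicate 5 at 0.20, 0.23 and 0.27, where only the last piece of replicate 3 passed the threshold.

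The 4 long losses lay in 4 TI tumours on 4 chromosomes. TI replicate 6 lost Chr 4 from 109540001 to 145640000 at -0.91, or 1.07 copies. TI replicate 8 lost distal Chr 6 at 1.01 copies. TI replicate 7 lost Chr 14 from 62080001 to the end of the chromosome at -0.68, or 1.25 copies, at the border of the whole-copy band. TI replicate 3 lost Chr 9 from 69260001 to 95080000 at -0.45. The first 3 lay near 1 copy and the last did not.

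Intermediate levels below 0 recurred on Chr 9 above all. Chr 9 was low in 6 of 8 TI tumours, and the stretch shared by all 6 ran from 77160001 to 121760000 (44.6 Mb). In TI replicate 1 it lay at -0.15 over 97.6% of the chromosome, in replicate 4 at -0.34 over 97.5% and in replicate 7 at -0.30 over 95.5%. TI replicate 2 held 2 distal pieces at -0.095 and -0.054. TI replicate 8 held 3 pieces at -0.095, -0.21 and -0.092, and TI replicate 3 held the loss between intermediate pieces at -0.38 and -0.29. TI replicates 5 and 6 and all 8 TIM tumours had only level long segments on Chr 9.

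Chr 4 held low long segments in 5 TI tumours. TI replicate 1 lay at -0.075 over 97.6% of the chromosome, replicate 3 at -0.38, -0.34 and -0.21 in 3 pieces, replicate 5 at -0.063 in its proximal 38.4 Mb and replicate 7 at -0.052 over 72.7%. TI replicate 6 held the loss together with a piece at 0.13. At most 4 of the 5 were low at any one position. The long segments of Chr 4 were level in TI replicate 4, but over segments of all lengths the chromosome lay at -0.11 in this tumour. Chr 16 and Chr 19 were low in 3 TI tumours each. Chr 16 lay at -0.31 and -0.34 in replicate 3, at -0.054 in replicate 5 and at -0.30 in replicate 7. Chr 19 lay at -0.075 in replicate 1, at -0.24 in replicate 3 and at -0.17 in replicate 7, each time over at least 94.9% of the chromosome. Chr 14 and Chr 15 were low in TI replicates 5 and 7. The level segments of TI replicate 5 themselves had a median of -0.034, down to -0.046, so its low segments on Chr 4, Chr 14, Chr 15 and Chr 16 lay just past the limit of -0.05 and close to its other chromosomes. In TIM the only low segment was on Chr 15 in replicate 4, at -0.093 over 69.3 Mb.

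Other intermediate segments were private to 1 tumour of a group. Above 0 these were Chr 8 and Chr 10 in TI replicate 4, Chr 2 and Chr 18 in TI replicate 5 and Chr 14 in TI replicate 6. In TIM they were Chr 5, Chr 8 and Chr 10 in replicate 9 at 0.050 to 0.095 and Chr 3 and Chr 18 in replicate 12 at 0.12 to 0.13. Below 0 they were Chr 13 in TI replicate 1, Chr 2 and Chr 8 in TI replicate 6 and Chr 5 in TI replicate 7.

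Within some tumours, intermediate segments of several chromosomes had similar levels, and in others they spread. In TI replicate 1, Chr 4, both pieces of Chr 13 and Chr 19 lay between -0.075 and -0.073. In TI replicate 7, Chr 9, proximal Chr 14 and Chr 16 lay between -0.30 and -0.29, whereas its other intermediate segments lay between -0.17 and -0.052. In TI replicate 4, the 3 pieces of Chr 10, Chr 12 and Chr 17 lay between 0.14 and 0.17, whereas Chr 8 lay at 0.095. In TI replicate 5, the 5 intermediate segments below 0 lay between -0.076 and -0.054, but the 12 above 0 ran from 0.075 to 0.27. Those of TI replicate 3 below 0 ran from -0.38 to -0.21. TI replicate 6 had segments from 0.064 to 0.18 above 0 and at -0.28 and -0.056 below.

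**Figure D3:**
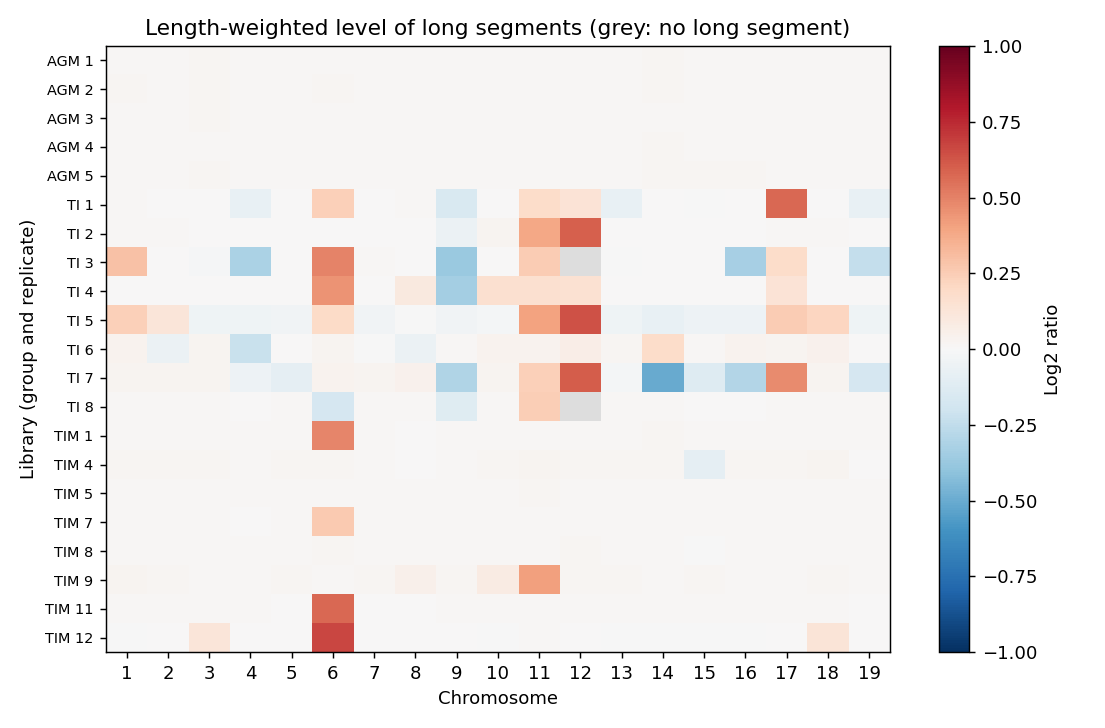
Length-weighted median log2 ratio of the long segments of each autosome (columns) in each library (rows), red above 0 and blue below, grey where a library has no long segment. Chr 11 is high in 7 TI rows, Chr 9 is below -0.05 in 6 TI rows, Chr 6 is high in 4 TIM rows, and the 2 grey cells are Chr 12 of TI replicates 3 and 8.

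Of 35 genes listed for their link to neuroblastoma, growth control or the transgenes, 13 (37.1%) lay within a long gain in at least 1 TI tumour and 7 in at least 1 TIM tumour. Of all 20621 protein-coding autosomal genes the shares were 21.9% and 8.61%. The list was chosen with earlier results of these data known and 8 of the 13 genes lie on Chr 11, so the counts are no result about these genes. A gene was counted only where 1 long segment held its whole body. Igf2bp1, the murine counterpart of the transgene, lay within a long gain in 7 of 8 TI tumours and 0 of 6 TIM tumours with a long segment there. The same counts held for Birc5, which encodes the apoptosis inhibitor survivin, Top2a, a DNA topoisomerase, and Nme1, a nucleoside diphosphate kinase. For these genes TIM replicates 5 and 9 were left out, as no long segment held them. Over segments of all lengths these tumours had the highest Chr 11 levels of TIM, 0.11 and 0.45, so the counts do not describe them. Ppm1d, a phosphatase that dampens p53 signalling, and the transcription factor gene Tbx2 were in a long gain in 6 of 8 TI and 1 of 7 TIM tumours. Further towards the centromere, Nf1 was gained in 3 of 6 TI tumours and Trp53, which encodes p53, in 1 of 7, where the single Trp53 gain was the segment of TI replicate 5 at 0.34. Each of the 2 genes was gained in 1 TIM tumour, at 0.54. Mycn lay within a long gain in 2 of 5 TI tumours and at intermediate levels in the 3 others. TI replicates 2, 3 and 8, with no long segment there, had Chr 12 levels of 0.58, 0.56 and 0.51 over segments of all lengths.

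Long losses held 5.98% of all protein-coding genes in at least 1 TI tumour and none in TIM. Arid1a, a subunit of a chromatin remodelling complex, lay in the Chr 4 loss of TI replicate 6 at -0.91. Rb1, a brake on cell cycle entry, lay in the Chr 14 loss of TI replicate 7 at -0.68.

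Intermediate levels below 0 held 15 of the 35 genes (42.9%) in at least 1 TI tumour and 1, Myc, in a TIM tumour. The share over all protein-coding genes was 43.8% in TI and 1.10% in TIM. Intermediate levels above 0 held 10 of the 35 genes (28.6%) in at least 1 TI tumour and 4 (11.4%) in at least 1 TIM tumour, against 39.3% and 13.2% of all protein-coding genes. On Chr 9, Chek1, a checkpoint kinase gene, was held by intermediate segments below 0 in 5 of 8 TI tumours, at levels from -0.38 to -0.095. The DNA damage kinase gene Atm, the histone variant gene H2ax and the cell adhesion gene Cadm1 were held by intermediate segments below 0 in 4 of 7. On Chr 4, Cdkn2a, which encodes cell cycle inhibitors, was held by segments of this kind below 0 in 3 of 7 TI tumours, and Chd5, Kif1b and Camta1 near the distal end in 2 of 4. No long segment held the distal genes in TI replicates 3, 4, 6 and 8. Over segments of all lengths Chr 4 lay at -0.26, -0.11, -0.34 and 0.0072 in these tumours. Th and Ccnd1 on distal Chr 7 lay in a long segment in only 1 TI and 0 TIM tumours. With Dbh they were the 3 genes of the list that lay in no long segment away from the diploid level.

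Few gains, losses or intermediate segments covered a whole chromosome. In TI, 16 of 61 intermediate segments spanned at least 90% of their chromosome, against 2 of 21 gains, 0 of 4 losses and 52 of 156 level segments. In TIM the counts were 0 of 9 intermediate segments, 0 of 11 gains and 65 of 231 level segments, and in AGM 60 of 132. The median length in TI was 42.6 Mb for gains, 31.5 Mb for losses, 53.0 Mb for intermediate and 74.9 Mb for level segments. Of the 21 TI gains, 13 reached the distal end of the chromosome and 5 the proximal end, counted within 0.5 Mb.

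The edges of level segments were shared between libraries more often than those of gains and intermediate segments. Only edges inside a chromosome were counted, and an edge was shared where another library had an edge of a long segment at the same grid position. In the tumours 120 of 359 such edges of level segments (33.4%) were shared, against 11 of 81 of intermediate segments (13.6%) and 5 of 47 of gains and losses (10.6%). In AGM 54 of 87 edges (62.1%) were shared. These counts were not tested, and several edges come from the same tumour.

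The base composition and gene density of the long segments are given by level. The median GC content in TI was 43.0% for gains, 41.5% for losses, 41.7% for intermediate and 41.8% for level segments, within a range of 38.2% to 47.5%. The median density was 9.04 protein-coding genes per Mb in gains, 8.40 in losses, 8.99 in intermediate segments below 0, 6.37 in intermediate segments above 0 and 7.90 in level segments. The gains came from 5 chromosomes and the losses from 4, so their values also describe which chromosomes were involved.

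The difference between the mean and the median of a long segment varied with its level. In the 132 AGM segments the mean exceeded the median in 125, and the difference of mean minus median ran from -0.018 to 0.035 with a median of 0.020. None reached 0.05 in either direction. In the tumours 153 of 493 long segments reached this limit, 108 in TI and 45 in TIM.

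All 34 intermediate segments below 0 had a mean below the median, by at least 0.060. In the 20 segments with a median between -0.2 and -0.05 the difference lay between -0.21 and -0.16, and in the 14 between -0.4 and -0.2 it lay between -0.15 and -0.060. All 36 intermediate segments above 0 had a mean above the median. The difference lay between 0.050 and 0.099 in the 24 segments with a median from 0.05 to 0.2 and between 0.012 and 0.050 in the 12 from 0.2 to 0.3. The 13 gains below 0.55 all had a mean below the median, by 0.0090 to 0.084. In the 19 gains at 0.55 and above, near 3 or 4 copies, the difference ran from -0.048 to 0.023. In 3 of 4 losses the mean lay above the median by 0.11 to 0.20, and in the loss of TI replicate 3 at -0.45 it lay below by 0.021. Read along the copy number, the sign of the difference changed near 2 copies, between 2.45 and 2.53 copies, near 3 copies, between 3.18 and 3.90 copies, and between 1.46 and 1.25 copies. Most of this course below 0 was seen in TI alone, as TIM had 1 intermediate segment below 0 and no loss. What sets it was not tested, and the way the deposited values were computed from windows is not given in full in the sources used here.

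**Figure D4:**
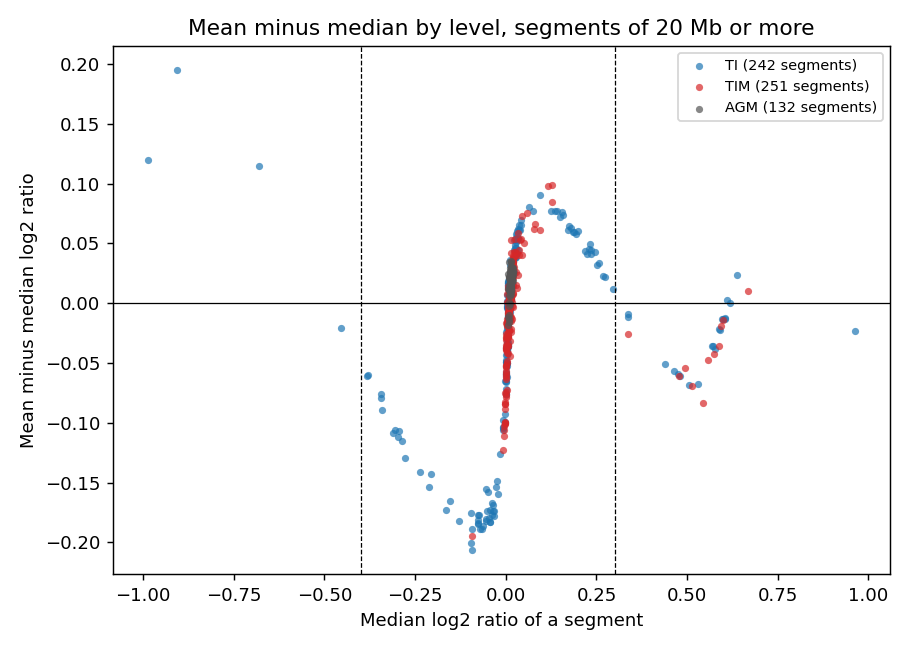
Mean minus median log2 ratio (vertical axis) against the median (horizontal axis) for the 625 long segments, coloured by group, with dashed lines at the gain and loss thresholds. The difference falls to -0.21 just below 0, rises to 0.099 above 0, turns negative between 0.34 and 0.55 and is positive for 3 of 4 losses.

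The 5 long segments with the widest difference lay in 4 tumours. In TI replicate 8, 2 pieces of Chr 9 had medians of -0.092 and -0.095 and means of -0.30 each, a difference of -0.21 and -0.20. The Chr 4 loss of TI replicate 6 had a median of -0.91 and a mean of -0.71, a difference of 0.20. Chr 15 of TIM replicate 4 had a median of -0.093 and a mean of -0.29, and Chr 5 of TI replicate 7 a median of -0.093 and a mean of -0.28.

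Level segments could also be far from 0 by their mean. By the mean 58 of 156 level segments in TI and 50 of 231 in TIM were intermediate, against 1 of 132 in AGM. Their number differed between libraries. In TI replicate 5, 12 of 15 level segments were intermediate by the mean. The mean lay below the median in all 15 of them, with a median difference of -0.17, and their medians ran from -0.046 to 0.0097. In TIM replicate 12 the count was 23 of 36, with a median difference of -0.058. In TI replicate 6 it was 17 of 23, with a median difference of 0.049. Conversely, all 36 gains and losses kept their class by the mean, 11 of 33 intermediate segments of TI below 0 became losses and 1 of 28 above 0 became a gain.

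Groups were compared only on measures over autosomal segments of all lengths, which do not use the limit of 20 Mb. Long segments hold most of that sequence, and the excess of intermediate levels in TI was known before these tests, so they are no independent support for the counts above. The first measure was the length at intermediate levels per sample. It was 527 ± 296 Mb (SD, n = 8) in TI, 80.0 ± 91.4 Mb (SD, n = 8) in TIM and 0.760 ± 0.803 Mb (SD, n = 5) in AGM. The TI value was the higher in 59 of 64 pairs of TI and TIM tumours (two-sided exact permutation test of the rank sum, p = 0.00295, BH adjusted p = 0.00886 over 6 tests). It was the higher in 40 of 40 pairs of TI and AGM samples (exact permutation p = 0.00155, the lowest that 8 against 5 samples can give, adjusted p = 0.00886). For TIM and AGM, the tumour value was the higher in 35 of 40 pairs (p = 0.0287 by the same exact test, adjusted p = 0.0345), and without AGM replicate 2 or without AGM replicate 5 the exact permutation p was 0.0727. This p was 0.0715 with the difference of means and also with a baseline of 0.1. With the mean in place of the median the difference between TI and TIM did not pass (exact permutation p = 0.161). TI replicate 8, the single TI library of the AGH series, had 121 Mb, which exceeded 6 of 8 TIM tumours.

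The second measure was the length-weighted average of the absolute difference between mean and median. It was 0.058 ± 0.028 (SD, n = 8) in TI, 0.025 ± 0.017 (SD, n = 8) in TIM and 0.020 ± 0.0024 (SD, n = 5) in AGM, on the log2 scale. It was larger in TI than in TIM in 55 of 64 pairs (p = 0.0148 in the exact test, adjusted 0.0221). Against AGM it was larger in 37 of 40 pairs (p = 0.0109 in the exact test, adjusted 0.0218). TIM and AGM were not distinguished (17 of 40 pairs, exact permutation p = 0.724, adjusted p = 0.724). Without the weight by length the direction of both TI comparisons turned (exact permutation p = 0.574 against TIM and 0.0653 against AGM). Without the tumours from the adrenal gland TI against TIM did not pass (exact permutation p = 0.101). TI replicate 8 had a value of 0.028, which exceeded 5 of 8 TIM tumours.

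The third measure was the length-weighted level of each autosome per sample, tested for 19 autosomes in 3 comparisons with BH adjustment over 57 tests. Between TI and TIM, 3 of 19 autosomes (15.8%) passed. Chr 12 was higher in TI in 64 of 64 pairs, with group medians of 0.53 and 0.011 (exact permutation p = 0.000155, the lowest that 8 against 8 samples can give, adjusted p = 0.00886). Chr 4 was lower in TI in 60 of 64 pairs, with group medians of -0.069 and 0.0075 (exact permutation adjusted p = 0.0118). Chr 9 was lower in TI in 57 of 64 pairs, with group medians of -0.15 and 0.012 (exact permutation adjusted p = 0.0399). The call of Chr 9 was lost without TI replicate 1, the tumour labelled IGF2BP1 +/- (exact permutation adjusted p = 0.0797), and without TI replicate 8 (0.0664), and that of Chr 4 without the tumours from the adrenal gland (0.0569). Other calls were gained, namely Chr 17 (exact permutation adjusted p = 0.0483) and Chr 19 (0.0239) without TI replicate 8. Chr 16 was gained without the tumours from the adrenal gland (0.0307). Chr 11 was higher in TI in 55 of 64 pairs but did not pass (exact permutation p = 0.0148, adjusted p = 0.0701), and TIM replicate 9 lay at 0.45 there, above the highest TI tumour at 0.39. Chr 17 was higher in TI in 56 of 64 pairs and did not pass as deposited (exact permutation adjusted p = 0.0540), but did so with each library centred on its own median autosome (0.00443). Under the same centring Chr 16 also passed, lower in TI (0.0424 against 0.0886 as deposited). TI replicate 8 lay at 0.51 on Chr 12, at 0.0072 on Chr 4 and at -0.15 on Chr 9, where the TIM tumours lay between 0.00058 and 0.024, between -0.0014 and 0.013 and between 0.00048 and 0.015.

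Between TI and AGM, 6 of 19 autosomes (31.6%) passed, each with 40 of 40 pairs in 1 direction (exact permutation adjusted p = 0.0111). Chr 11 and Chr 12 were higher in TI, with medians of 0.25 and 0.53, and Chr 4, Chr 5, Chr 15 and Chr 19 were lower. The group medians differed by less than 0.05 for 3 of the 6, namely Chr 5, Chr 15 and Chr 19, where TI lay at 0.0045, 0.0018 and -0.020 and AGM at 0.011, 0.015 and 0.011. When the test used the difference of means, 2 of 19 autosomes passed. Chr 9 was lower in TI than in AGM in 35 of 40 pairs but did not pass (exact permutation p = 0.0295, adjusted p = 0.0886). Without the tumours from the adrenal gland 9 of 19 autosomes passed. Chr 9, Chr 13 and Chr 16 joined the 6 there (exact permutation adjusted p = 0.0131 each). TI replicates 5 and 6 lay at -0.037 and 0.015 on Chr 9, and the AGM glands between 0.012 and 0.014. With each library centred on the median of its own 19 autosome levels, an alternative added after seeing the data, Chr 9 passed, as did Chr 3 and Chr 17 (exact permutation adjusted p = 0.00738 each). The centred group medians of TI and AGM differed by only -0.0038 on Chr 3, against -0.16 on Chr 9 and 0.14 on Chr 17. Under the same centring Chr 5 turned direction and did not pass (exact permutation adjusted p = 0.314), and neither did Chr 19 (0.213).

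Between TIM and AGM, 1 of 19 autosomes (5.26%) passed. This was Chr 6, which was higher in TIM in 40 of 40 pairs with group medians of 0.20 and 0.022 (exact permutation adjusted p = 0.0111). The 4 TIM tumours with long gains of Chr 6 lay between 0.27 and 0.69, and 3 of the 4 others, replicates 4, 8 and 9, lay between 0.026 and 0.045. TIM replicate 5 lay at 0.13, with its long segments of Chr 6 all level. With the difference of means no autosome passed and 1 had an unadjusted exact permutation p under 0.05. With the mean column 3 autosomes passed. With each library centred on its own median autosome Chr 15 also passed, lower in TIM (exact permutation adjusted p = 0.00738). The centred group medians differed there by only -0.0016.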

How the data were processed

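DNA of 24 mouse samples was analysed by sWGS. According to the labels and the methods of the study, the authors trimmed reads with cutadapt 2.8, aligned them to mm39 with HISAT2 2.1.0, processed alignments with SAMtools 1.10 and called copy number with cn.MOPS, which models read counts in windows as whole-number copy number classes. The deposited log2 values are a median and a mean per segment, relative to the AG adrenal glands. Whether they are plain ratios or class-weighted estimates is not given in the sources used here. The lowest median, -5.32, equals the log2 of 0.025, so extremes are limited. Because the computation of the values is not known, intermediate levels are not read as shares of cells. The deposited copy number column was not used. The study gives a low coverage common to all samples. Reads per library and per window were not analysed here, so no interval that needs the depth of a library is given. The 5 AGM glands, all of the AGH series, serve as the only measure of precision. It is narrower than the spread of level segments in the tumours.

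Segments on the 19 autosomes with a length of at least 20 Mb were kept. The members, gene list and lists of alternatives were chosen with earlier results of these data known. Named are each autosome with a long segment past a threshold or intermediate in at least 2 tumours of TI or TIM, each long loss, the segments nearest the thresholds and the 5 with the widest difference of mean and median. Genes, GC content and sequences came from GRCm39, whose autosome lengths equal the last segment ends, and from GENCODE M39. Some genes of the list enter the counts but are not reported here. Groups and replicate numbers came from the sample descriptions. Groups were compared on measures per sample over all segments by two-sided exact permutation tests of the Mann-Whitney rank sum with Benjamini-Hochberg (BH) adjustment over 6 and 57 tests. Level calls and exact tests were first tested on simulated data with known answers. Alternatives were other lengths, thresholds, baselines, copy number bands and limits, the mean column, joined neighbours, a difference of means, a replicate block and subsets of samples. Scripts ran in Python 3.11.15 with pandas 2.3.3 and numpy 2.4.6, and figures were drawn with matplotlib 3.10.9.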

Additional observations from a re-analysis of the deposited data

Results flagged for a closer look

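Among 21 sets of sample values examined for a single value far from the rest of its group (7 measures in 3 groups), 1 stood out, about as many as chance gives at 1 in 20 sets. AGM replicate 5 had 29 long segments, whereas the other AGM adrenal glands had 25 or 26. All 29 were level.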

How the results depend on the processing

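Of 154 results recomputed under an alternative, 105 had the same direction and outcome of the test or stayed within 1.5 times the count. The causes of the other changes were not tested beyond what the alternatives themselves change.

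A replicate block, with samples of the same number taken as pairs, gave an exact permutation p of 0.0625 for the length at intermediate levels in TI against TIM and in TI against AGM and of 0.25 in TIM against AGM. For the difference of mean and median it gave 0.0625, 0.125 and, with the direction turned, 1. No autosome passed in any comparison under the block, where the smallest p it allows is 0.0625 for 5 pairs and 0.25 for 3, and none had an unadjusted p under 0.05. The numbers were not taken to pair the samples, since the correlation of deviations between samples of the same number ran from -0.56 to 0.71.

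For the length at intermediate levels the exact permutation p was 0.161 in TI against TIM with the mean, and in TIM against AGM 0.0715 both with the difference of means and with a baseline of 0.1. Leaving out each AGM replicate gave 0.0263 to 0.0727 in TIM against AGM. For the difference of mean and median, TI against TIM had 0.101 without adrenal gland tumours and, unweighted, 0.574 with the direction turned, as was TI against AGM with 0.0653. TIM against AGM turned direction with the difference of means (exact permutation p = 0.592) and without adrenal gland tumours (0.792).

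The number of autosomes that passed moved from 3 to 5 in TI against TIM and from 1 to 2 in TIM against AGM after centring each library, chosen after seeing the data. It moved from 6 to 2 in TI against AGM and from 1 to 0 in TIM against AGM with the difference of means, and from 1 to 3 in TIM against AGM with the mean column.

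At a length of at least 10 Mb there were 42 gains, 8 losses and 39 segments near 1 whole copy in TI, and 19 gains and 18 intermediate segments in TIM. At 40 Mb there were 12 gains, 1 loss, 38 intermediate segments and 10 near 1 whole copy in TI, and 2 gains and 1 near 1 whole copy in TIM. Intermediate segments of TIM numbered 17 at a baseline of 0.03 and 3 at 0.1. Thresholds of 0.2 and -0.2 gave 33 gains, 18 losses and 35 intermediate segments in TI. The mean column gave 15 losses and 107 intermediate segments in TI and 59 intermediate segments in TIM. Joining neighbours of the same level gave 6 gains and 5 segments near 1 whole copy in TIM. Segments with a difference of mean and median beyond the limit numbered 6 in AGM and 82 in TIM at 0.03, and 49 in TI and 7 in TIM at 0.1.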
